A study of Mus musculus with 10 samples.

Results

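Ferroptosis control genes set how far iron-dependent oxidation of membrane lipids can run in a cell. The 10 genes described here were chosen by name from a table of 55291 genes, and all 10 were found in it. They are Gpx4, Aifm2, Slc7a11, Slc3a2, Acsl4, Lpcat3, Alox12, Alox15, Sat1 and Ncoa4. RNA came from submandibular salivary glands, taken at day 7 after either of 2 operations on C57BL /6J mice, labelled female and 8 weeks old. In 5 ligated glands the right duct had been tied at its near and far ends, which blocks the outflow of saliva. In 5 sham glands only the skin incision and the dissection of the gland were made. Whether each gland came from a separate mouse is not stated in the labels, so p-values measure the spread between these samples. The mice carried no transgene or deletion per the labels, and each library is whole gland tissue, with no cells sorted. In such bulk samples a change in the number of cells of a type and a change in RNA per cell cannot be told apart.

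In ferroptosis, polyunsaturated fatty acids in membrane phospholipids are oxidised in chains that iron feeds. Acsl4 and Lpcat3 load such fatty acids into phospholipids, lipoxygenases can oxidise them, and Ncoa4 delivers ferritin to lysosomes, where its iron is freed. Against this work GPX4, a selenium enzyme that reduces lipid peroxides with glutathione, and AIFM2 (also called FSP1), which regenerates radical-trapping quinones. The glutathione rests on cystine, which is taken up by a transporter made of the chains SLC7A11 and SLC3A2.

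The selenium in GPX4 sits in a selenocysteine, which is encoded by TGA, a codon that otherwise ends translation. The sequence around it is shown because Gpx4 is the member with the highest level and its product depends on reading this codon. It lies on GRCm38 at chr10:80054737-80054739 on the plus strand, in the coding part of the gene, and is codon 73 of transcript Gpx4-202, which encodes 197 residues in the GENCODE M21 annotation. The stretch below is coding sequence with the selenocysteine codon in capitals.
Gpx4: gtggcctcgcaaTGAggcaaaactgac

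Promoters of the cystine transporter chains are shown because these chains form a single transporter and are set against each other below. RefSeq windows on GRCm38.p6 were matched for 9 of the 10 genes, without Alox15, and cover 250 bases before to 50 bases after a RefSeq start. A pair of motifs was searched on both strands, TGATGNAA, the core of the CEBP-ATF response element bound by the stress factor ATF4, and TGACNNNGC, the core of the antioxidant response element. Capitals mark matches, and no matches overlap.
Slc7a11, minus strand, chr3:50443564-50443863: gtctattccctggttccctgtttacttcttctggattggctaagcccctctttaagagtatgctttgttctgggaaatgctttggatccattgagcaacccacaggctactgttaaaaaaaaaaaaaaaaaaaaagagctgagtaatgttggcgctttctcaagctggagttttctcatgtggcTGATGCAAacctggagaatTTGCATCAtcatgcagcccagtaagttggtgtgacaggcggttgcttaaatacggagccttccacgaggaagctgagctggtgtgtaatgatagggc
Slc3a2, minus strand, chr19:8713848-8714147: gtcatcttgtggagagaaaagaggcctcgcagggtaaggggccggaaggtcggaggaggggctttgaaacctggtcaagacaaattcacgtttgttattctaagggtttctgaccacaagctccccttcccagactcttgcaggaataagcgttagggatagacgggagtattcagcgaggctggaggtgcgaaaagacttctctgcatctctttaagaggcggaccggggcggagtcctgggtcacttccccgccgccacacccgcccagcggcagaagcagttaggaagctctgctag
The Slc7a11 window held TGATGNAA at -66 to -59 and, on the opposite strand, at -47 to -40 from the start. Of 32851 promoter windows, 3.97% held this motif at least once and 0.0700% more than once. Neither motif was in the Slc3a2 window. That window lies inside the gene span of the GENCODE M21 annotation (chr19:8706882-8723369), and no window at the outer start of this span was searched. TGACNNNGC, found in 12.4% of all windows, was among the members only in 1 of 3 windows of Ncoa4. A match is a description of letters and not of a bound site.

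Depth worked out from the values was 12105738 to 17305595 reads assigned to genes per library. Among counts of 20 or fewer worked out in this way, 67.3% to 75.3% per library were even. Independent fragments may therefore be fewer than the reads given here and below, which was not tested. Some libraries stood apart from the others in their group. The summed level of 8 lymph node markers was 149 to 219 FPKM (a level scaled for gene length and library size) in ligated 1, 2 and 3 and 233 FPKM in sham 1, against 4.28 and 5.57 FPKM in ligated 4 and 5 and at most 1.48 FPKM in the other sham glands. The summed level of 6 parotid markers was highest in ligated 2, 3 and 5 (23661 to 46535 FPKM) and sham 1 (27225 FPKM), against 4656 and 9165 FPKM in ligated 4 and 1 and 13683 to 18347 FPKM in the other sham glands. Results for the members and their ratios that changed without either set of libraries are given both ways. Counts of other genes by role use all libraries unless stated. Acinar markers, 8 in number, were present in every library and summed to 6472 to 16969 FPKM in ligated and 33139 to 47830 FPKM in sham glands. The mice are labelled female, but the Y-linked gene Ddx3y stood at 12.0 to 16.3 FPKM in ligated and 3.58 to 13.8 FPKM in sham libraries. Xist reached at most 0.0267 FPKM; these values go against the label.

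Duct ligation was accompanied by higher levels of 4 members, namely Acsl4, Aifm2, Alox12 and Sat1, and 0 members were called lower. Genes were compared with limma on log2(FPKM + 1), the scale of all fold changes below, with Benjamini-Hochberg adjustment over 11856 tested genes. To be called, a gene had to reach an adjusted p below 0.05 together with a log2 change of 1 or more in either direction. Of the 10 members 8 passed the filter of 1 FPKM in at least 5 libraries, and these 8 exceeded 1 FPKM in all 10 libraries. Slc7a11 and Alox15 did not pass it. Of all tested genes 17.1% were called higher and 1.16% lower, so calls in the upward direction were common. Without the libraries high in parotid markers 3 members were called higher (Aifm2, Sat1 and Gpx4), and without those high in lymph node markers 5 were. Of all 11856 tested genes 2166 and 2591 were called higher in these fits, against 2031 with all libraries. At an adjusted p under 0.05 alone, Gpx4 and Ncoa4 were higher too, making 6 of 8 members, where 56.8% of all genes were higher, and 0 were lower, where 3.35% of all genes were. The groups did not overlap, with ligated glands higher, for 4 of 8 members (Gpx4, Aifm2, Sat1 and Ncoa4), and the same held for 30.2% of tested genes. Without the libraries high in parotid markers the 6 higher at an adjusted p alone became 4. Among all tested genes the number fell likewise, from 6732 to 4590. The median log2 fold change was 1.06 over the 8 members and 0.53 over all tested genes.

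**Figure D1:**
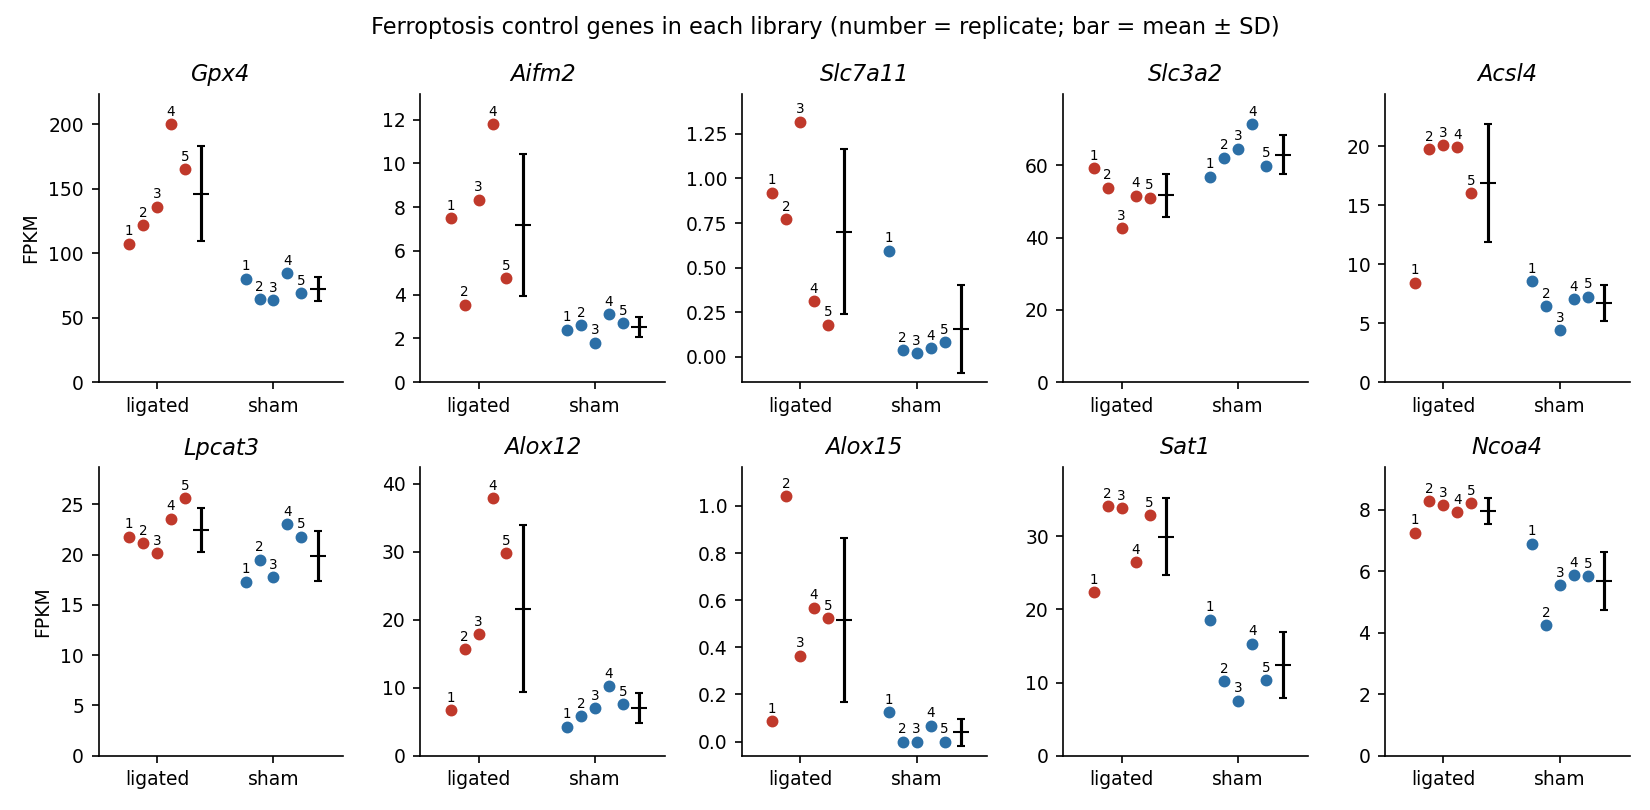
FPKM of each ferroptosis control gene in 5 ligated (red) and 5 sham (blue) libraries, with the replicate number at each point and the mean ± SD beside each group. Gpx4, Aifm2, Sat1 and Ncoa4 have no overlap between the groups, and ligated 1 lies at or near the sham range for Acsl4, Alox12 and Alox15.

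Gpx4 had the highest level of the 10 genes in either group. It stood at 107, 121, 136, 199.7 and 165 FPKM in ligated 1 to 5, against 80.2, 64.5, 63.4, 84.2 and 69.0 FPKM in sham 1 to 5. Every ligated gland lay above every sham gland, and ligated 4 was the highest. Means were 146 ± 36.9 FPKM in ligated and 72.3 ± 9.42 FPKM in sham glands (SD, n = 5 each), a log2 fold change of 0.98 ± 0.18 (SE; limma adjusted p = 0.00183). The change passed the adjusted p but fell just short of the fold threshold, so Gpx4 was not called. Gpx4 would be called without ligated 1 (1.08), ligated 2 (1.03), sham 1 (1.02) or sham 4 (1.03). It would also be called without the libraries highest in parotid markers (1.06, limma adjusted p = 0.0211). The same held without those high in lymph node markers (1.37, limma adjusted p = 0.000627). The gene (ENSMUSG00000075706.10) lies on GRCm38 at chr10:80047166-80056439.

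Aifm2, the glutathione-independent suppressor, rose at a much lower level than Gpx4. It was at 7.49, 3.55, 8.35, 11.8 and 4.76 FPKM in ligated 1 to 5, against 2.40, 2.60, 1.81, 3.11 and 2.70 FPKM in sham 1 to 5. The groups did not overlap, although ligated 2 came close to sham 4. The log2 fold change was 1.13 ± 0.26 (limma adjusted p = 0.0045), and without ligated 4 it was 0.95 and no longer a call. Aifm2 overlaps H2afy2 on the opposite strand, and since strandedness is not given in the sources used here, reads from these genes cannot be told apart.

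The chains of the cystine transporter differed widely in level, and neither passed the test. Slc3a2, the heavy chain shared with other amino acid transporters, was among the more abundant members. It stood at 59.2, 53.8, 42.7, 51.6 and 51.1 FPKM in ligated 1 to 5, against 56.9, 62.2, 64.6, 71.4 and 59.9 FPKM in sham 1 to 5. Apart from ligated 1 each ligated gland lay below the sham glands. The log2 fold change of -0.28 ± 0.12 did not pass the test (limma adjusted p = 0.0668). Without ligated 1 it passed (limma adjusted p = 0.0426), still under the fold threshold. Scaling moved it both ways. It was -0.93 under median-ratio scaling (limma adjusted p = 0.0026), -0.87 under quantile normalization (limma adjusted p = 0.00424) and -0.95 by voom (limma adjusted p = 0.00256), none of them a call, and 0.26 when all libraries were given the same FPKM sum (limma adjusted p = 0.147).

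Slc7a11, the chain that carries cystine, was scarce. It stood at 0.919, 0.773, 1.32, 0.311 and 0.179 FPKM in ligated 1 to 5, against 0.594, 0.0355, 0.0208, 0.0475 and 0.0804 FPKM in sham 1 to 5. In recovered reads these were 180, 139, 246, 62 and 33 in ligated glands, against 107, 6, 5, 8 and 14 in sham glands. Sham 1 was above ligated 4 and 5, and the other 4 sham glands were below every ligated gland. A fit with no filter gave a log2 fold change of 0.54 ± 0.20 that did not pass (limma adjusted p = 0.0745), and an exact permutation test gave p = 0.0556 (two-sided).

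The 4 libraries with the most Slc7a11 were the 4 with lymph node markers. Among these, ligated 1, 2 and 3 held 0.773 to 1.32 FPKM of Slc7a11, against 0.594 FPKM in sham 1. Among the libraries nearly free of those markers, ligated 4 and 5 held 0.311 and 0.179 FPKM, against 0.0208 to 0.0804 FPKM in sham 2 to 5. The part of lymph node tissue in the result was not tested. Macrophage markers (8 genes, all called higher) summed to 1016 to 1869 FPKM in ligated and 140 to 565 FPKM in sham glands, and their part was not tested either. Slc7a11 is overlapped by 5 predicted genes, whose reads could be counted with it.

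**Figure D2:**
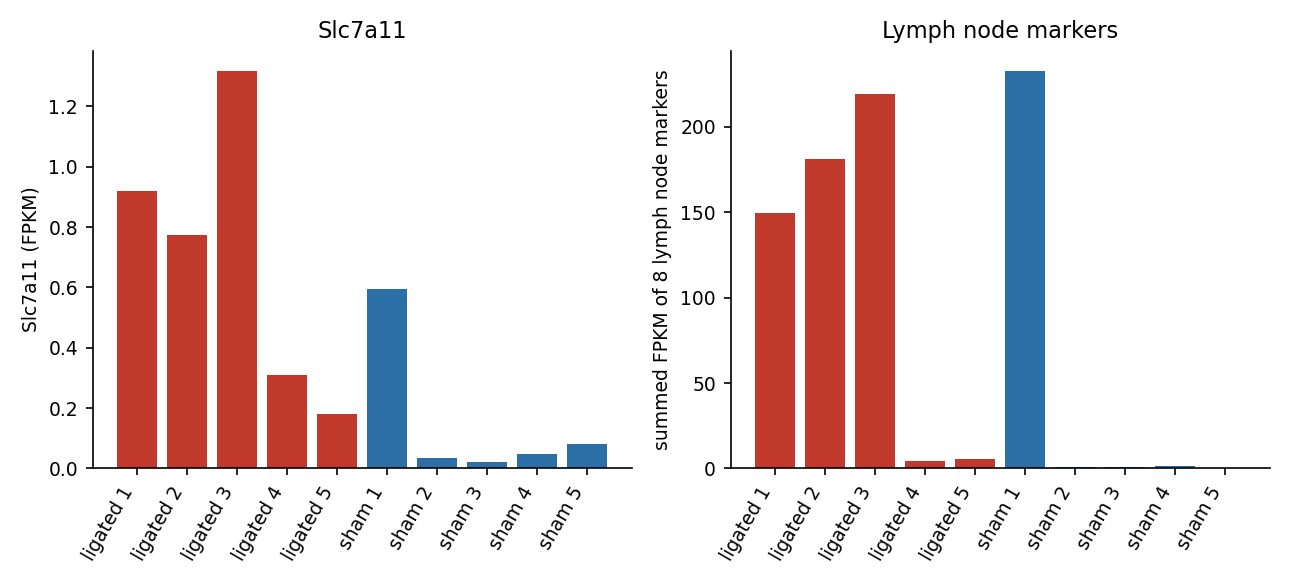
Slc7a11 in FPKM (left) and the summed FPKM of 8 lymph node markers (right) in each ligated (red) and sham (blue) library. The libraries with lymph node sums of 149 to 233 FPKM, ligated 1, 2 and 3 and sham 1, are the 4 with the most Slc7a11.

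Within each library, Slc7a11 was set against Slc3a2, since the chains pair in the transporter. The FPKM ratio of Slc7a11 to Slc3a2 was 0.0035 to 0.0309 in ligated and 0.000321 to 0.0104 in sham glands. On the log2 scale with a pseudocount of 1 the ratio was 0.82 higher in ligated glands (-4.99 ± 0.48 in ligated and -5.81 ± 0.37 in sham glands, SD, n = 5 each). An exact permutation test gave p = 0.0238 (two-sided, unadjusted, 1 of 2 ratios tested). The size depended on the settings, with 2.07 at a pseudocount of 0.1 and 1.34 under median-ratio scaling. Slc7a11 lay below 1 FPKM in all libraries but ligated 3, so library scaling did not cancel in this ratio. The difference joins 0.54 from Slc7a11 and -0.28 from Slc3a2, neither of which passed its own limma test. Sham 1 overlapped the ligated range. Without the 4 libraries with lymph node markers the difference was 0.57 (exact p = 0.0667, the smallest that 2 against 4 glands allow).

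Acsl4, which activates arachidonic and related fatty acids for insertion into phospholipids, was higher in 4 of 5 ligated glands than in any sham gland. Its levels were 8.45, 19.8, 20.1, 19.9 and 16.0 FPKM in ligated 1 to 5, against 8.57, 6.43, 4.39, 7.06 and 7.25 FPKM in sham 1 to 5. Ligated 1 fell within the sham range. The log2 fold change was 1.17 ± 0.24 (limma adjusted p = 0.00291). Leaving out the 4 libraries highest in parotid markers gave 0.97 (limma adjusted p = 0.0469), which ended the call with 2 ligated glands left. Acsl4 (ENSMUSG00000031278.12) lies on GRCm38 at chrX:142317993-142390535.

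Lpcat3, the acyltransferase that completes this insertion, did not differ by the test. It was at 21.8, 21.2, 20.1, 23.6 and 25.6 FPKM in ligated 1 to 5, against 17.3, 19.5, 17.8, 23.0 and 21.8 FPKM in sham 1 to 5. The groups overlapped widely, with a log2 fold change of 0.17 ± 0.12 (limma adjusted p = 0.235). The sign of this change turned under median-ratio scaling (-0.45), quantile normalization (-0.39) and voom on recovered reads (-0.48). Lpcat3 overlaps Emg1 on the opposite strand, so the same limit holds as for Aifm2.

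Set against Gpx4 in the same library, Acsl4 gave ratios that did not pass the test. The FPKM ratio of Acsl4 to Gpx4 was 0.0787, 0.163, 0.148, 0.0997 and 0.0973 in ligated 1 to 5, against 0.107, 0.0998, 0.0693, 0.0839 and 0.105 in sham 1 to 5. Ligated 2 and 3 lay above all other glands, ligated 1 was below all sham glands but sham 3, and the groups overlapped. The log2 ratio was -3.06 ± 0.41 in ligated and -3.26 ± 0.22 in sham glands (SD, n = 5 each), a difference of 0.19 (exact permutation test, two-sided, p = 0.381). This difference turned to -0.089 when the libraries highest in parotid markers were left out.

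The lipoxygenases differed strongly in level. Alox12, which adds oxygen to arachidonic acid and is known from platelets and epithelia, was at 6.74, 15.7, 17.9, 37.9 and 29.8 FPKM in ligated 1 to 5, against 4.28, 5.79, 7.02, 10.3 and 7.59 FPKM in sham 1 to 5. Ligated 1 lay below sham 3, 4 and 5, and the other ligated glands lay above all sham glands. The log2 fold change was 1.34 ± 0.39 (limma adjusted p = 0.0134), the largest of the 8 tested members and also the one with the largest SE. Leaving out the libraries highest in parotid markers gave 1.03, which did not pass (limma adjusted p = 0.149), and leaving out those highest in lymph node markers gave 2.02 (limma adjusted p = 0.000177).

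Over the 10 libraries the tested genes whose pattern was most like that of Alox12 were Cdh1, the epithelial adhesion protein E-cadherin, and Krt8, a keratin of simple epithelium. After centring each gene on its own mean, the root mean square difference from Alox12 on the log2 scale was 0.12 for Cdh1 and 0.18 for Krt8, against an SD of 0.97 for Alox12 itself. Cdh1 stood at 48.9, 120, 121, 231 and 205 FPKM in ligated 1 to 5, against 34.9, 46.8, 48.4, 64.5 and 64.5 FPKM in sham 1 to 5. Ligated 4 and 5 were highest and sham 1 lowest for Alox12, Cdh1 and Krt8. Of 6 platelet markers Gp1bb and Gp6 were at 0 FPKM in all libraries. Itga2b, the platelet integrin, stood at 2.52, 2.75, 2.16, 0.46 and 0.28 FPKM across ligated 1 to 5, against a sham range of 0.0604 to 1.62 FPKM. Pf4, a gene that macrophages also express, was the only one tested and was called higher, with 23.9 to 38.3 FPKM in ligated and 1.39 to 7.05 FPKM in sham glands. It was lowest in ligated 1 and sham 1 within their groups, as Alox12 was. Their highest glands differed, with Pf4 highest in ligated 2 (38.3 FPKM) and sham 3 (7.05 FPKM) and Alox12 in ligated 4 and sham 4. The platelet sum was 27.7 to 42.0 FPKM in ligated and 3.15 to 7.48 FPKM in sham glands. Most of it was Pf4 in every library but sham 1, with 26.7 of 27.7 FPKM in ligated 4. Ppbp was at 0.279 to 2.50 FPKM in ligated and at most 0.143 FPKM in sham glands, and Gp9 reached at most 0.484 FPKM. Keratinocyte markers, 7 in number with 2 tested and 0 called, summed to 56.3 to 129.6 FPKM in ligated and 25.8 to 78.5 FPKM in sham glands. Nearly all of this sum was Krt14 and Krt5, the 2 tested genes. Krt14 stood at 34.5 to 95.4 FPKM in ligated and 15.6 to 53.3 FPKM in sham glands. The other markers of the list added little, so the sum does not show that keratinocytes were present. The part of platelets, macrophages and epithelial cells in the result was not tested.

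**Figure D3:**
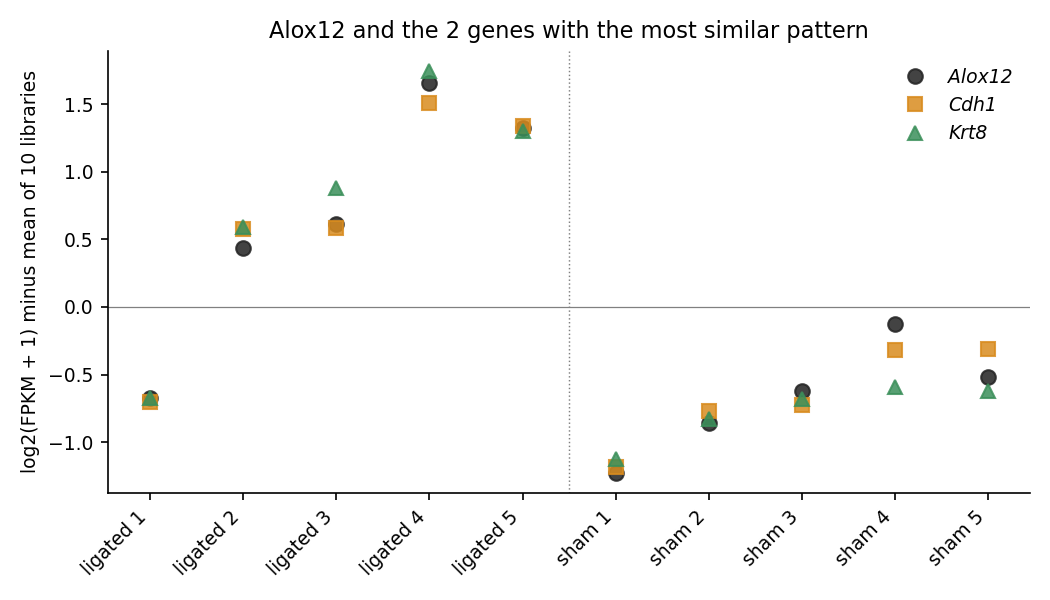
Log2(FPKM + 1) of Alox12, Cdh1 and Krt8 in each library, minus the mean of the gene over the 10 libraries. The points of the 3 genes lie close together in each library, with ligated 4 highest and sham 1 lowest. Cdh1 and Krt8 were picked on these same values as the tested genes nearest to Alox12, so their closeness follows from the choice.

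Alox15, the lipoxygenase of resident macrophages and eosinophils, was close to the limit of detection. It was at 0.0869, 1.04, 0.365, 0.569 and 0.523 FPKM in ligated 1 to 5, against 0.126, 0, 0, 0.0673 and 0 FPKM in sham 1 to 5. This rests on 85 reads in ligated and 6 reads in sham glands, and independent fragments may be fewer. In a library 3 reads amount to 0.0706 to 0.101 FPKM. Ligated 1 was below sham 1, and the other ligated glands were above all sham glands. With no filter the log2 fold change was 0.52 ± 0.14 (limma adjusted p = 0.0226), under the fold threshold. Eosinophil markers were low, with a sum over 5 genes of 0.483 to 4.62 FPKM in ligated and 0 to 4.29 FPKM in sham glands, and Epx, the eosinophil peroxidase, was at 0 in ligated 4 and 5 and in 4 of 5 sham glands. The other lipoxygenases looked at missed the filter and are given here outside the naming rule stated below. Alox5 averaged 0.851 FPKM in ligated and 0.392 FPKM in sham glands, and Alox12e 0.808 and 0.0332 FPKM. Alox8 averaged 0.0756 and 0.0354 FPKM, Aloxe3 0.0419 and 0.0124 FPKM, and Alox12b was at 0 in all libraries.

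Sat1, which acetylates polyamines for breakdown and is known as a target of p53, separated the groups fully. It was at 22.3, 34.1, 33.9, 26.5 and 32.9 FPKM in ligated 1 to 5, against 18.6, 10.2, 7.54, 15.3 and 10.3 FPKM in sham 1 to 5. Sham 1 was the highest sham gland and ligated 1 the lowest ligated gland. The log2 fold change was 1.25 ± 0.23 (limma adjusted p = 0.00152), and Sat1 remained a call in each of 10 fits that left out a single library. It was not a call under median-ratio scaling (0.64), quantile normalization (0.69) or voom (0.67). Trp53, the gene of p53, rose by 1.18 ± 0.28 (limma adjusted p = 0.0062), with 12.4 to 20.4 FPKM in ligated and 4.43 to 14.9 FPKM in sham glands, where sham 1 was the highest. Under median-ratio scaling Trp53 stood at 0.59 and did not pass (limma adjusted p = 0.0917).

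Ncoa4, the ferritin receptor of autophagy, moved by a small and even amount. It was at 7.25, 8.28, 8.16, 7.92 and 8.21 FPKM in ligated 1 to 5, against 6.89, 4.24, 5.55, 5.88 and 5.85 FPKM in sham 1 to 5. The groups did not overlap, with a log2 fold change of 0.43 ± 0.13 (limma adjusted p = 0.0142), which is below that of the median gene and far from the fold threshold. Leaving out the libraries highest in parotid markers gave 0.44, which did not pass (limma adjusted p = 0.0974). Its sign turned under median-ratio scaling (-0.13), quantile normalization (-0.19) and voom on recovered reads (-0.16).

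In order of level, ligated glands ran from Gpx4 (146 FPKM) through Slc3a2 (51.7), Sat1 (29.95), Lpcat3 (22.5), Alox12 (21.6), Acsl4 (16.9), Ncoa4 (7.96) and Aifm2 (7.19) to Slc7a11 (0.70) and Alox15 (0.517). Sham glands ran from Gpx4 (72.3 FPKM) through Slc3a2 (63.0), Lpcat3 (19.9), Sat1 (12.4), Alox12 (6.99), Acsl4 (6.74), Ncoa4 (5.68) and Aifm2 (2.52) to Slc7a11 (0.156) and Alox15 (0.0387). The ranges of Gpx4 and Slc3a2 overlapped in sham glands and were apart in ligated glands, where the lowest Gpx4 value was 107 FPKM and the highest Slc3a2 value 59.2 FPKM. Alox12 and Acsl4 did not differ beyond their spread in either group, nor did Slc7a11 and Alox15. Sat1 was above Lpcat3 in each of the 5 ligated glands, although their ranges overlapped. Ligated 1 held the lowest ligated value of 6 members (Gpx4, Acsl4, Alox12, Alox15, Sat1 and Ncoa4) and the highest value of Slc3a2. Markers of the granular convoluted tubule, a duct segment of the normal gland, summed to 41972 FPKM in ligated 1, the highest of the ligated glands, against 5606 to 26607 FPKM in the other ligated and 32339 to 67465 FPKM in the sham glands.

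The size of these changes depended on how libraries were scaled. Median-ratio scaling brought the median change of all genes from 0.53 to 0.01, and the calls among all genes from 93.6% upward to 64.0% upward. After it 0 members were called, where 7.11% of all genes were called higher and 4.01% lower. At an adjusted p under 0.05 alone, Sat1 (0.64, adjusted p = 0.0102) and Acsl4 (0.58, adjusted p = 0.0394) were then higher, and Slc3a2 (-0.93, adjusted p = 0.0026) and Lpcat3 (-0.45, adjusted p = 0.0304) lower by limma, where 15% of all genes were higher and 16.1% lower. Aifm2 (0.62, adjusted p = 0.0838), Alox12 (0.74, adjusted p = 0.172) and Gpx4 (0.33, adjusted p = 0.141) did not pass. Rescaling to the same FPKM sum moved the other way, with 5 members called higher, Gpx4 included, where 46.1% of all genes were called higher and 0.548% lower. Quantile normalization called 0 members, where 5.81% of all genes were called higher and 4.29% lower (57.5% of calls upward).

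**Figure D4:**
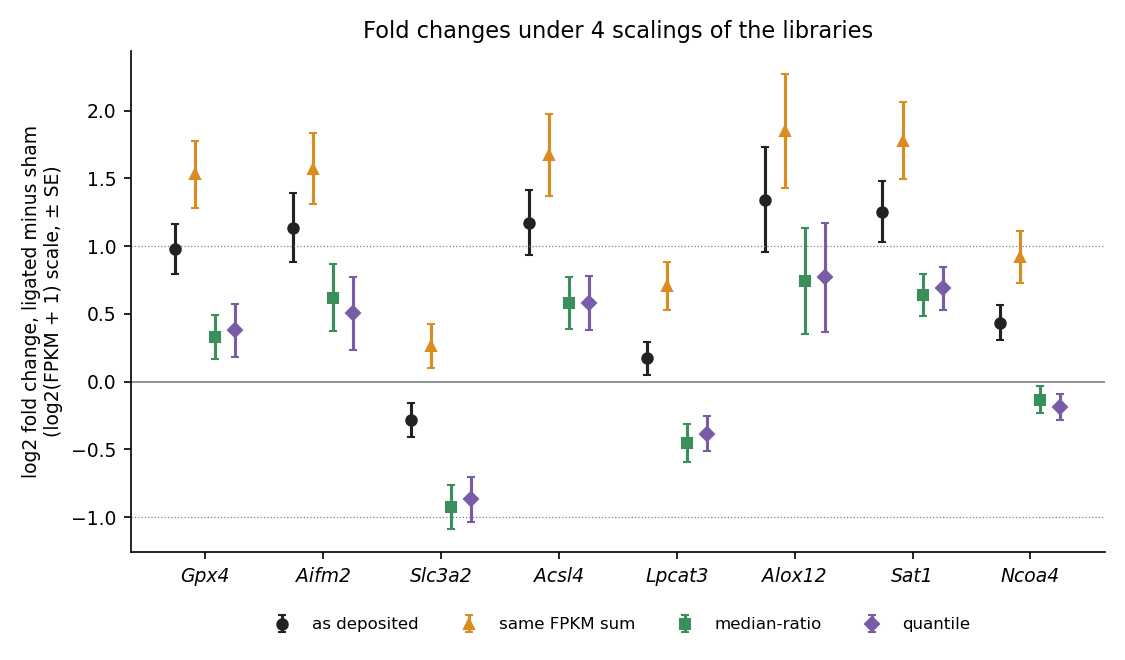
Log2 fold change (ligated minus sham, ± SE) of the 8 tested members under 4 scalings of the libraries, with dotted lines at the fold threshold. The members move together with the scaling, Slc3a2 stays lowest, and the sign of Slc3a2, Lpcat3 and Ncoa4 depends on the scaling.

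Other genes of ferroptosis control were counted by role, 95 in all, of which 82 were tested. By limma 20 were called higher and 0 lower (2 were lower at an adjusted p alone), where 17.1% of all genes were called higher and 1.16% lower. Their median log2 fold change of 0.50 lay beside the 0.53 of all genes. Under median-ratio scaling the calls were 10 upward and 2 downward, where 7.11% of all genes were called higher and 4.01% lower. Phospholipid remodelling had the most calls, with 8 of 15 tested genes higher, beside the 17.1% of all genes, and a median of 1.19. The lists were chosen with earlier results of these data known, so this share may partly follow from the choice. Under median-ratio scaling 4 were called higher and the median was 0.60, and under quantile normalization 3 were. Scd1, which makes monounsaturated fatty acids, rose by 3.05 ± 0.62 (limma adjusted p = 0.00274), with 409 ± 375 FPKM in ligated and 35.1 ± 19.1 FPKM in sham glands (SD, n = 5 each). Mboat1, an acyltransferase of lysophospholipids, rose by 1.78 ± 0.37 (limma adjusted p = 0.00316), and Lpcat2, an acyltransferase of inflammatory cells, by 1.63 ± 0.22 (limma adjusted p = 0.000374). Scd1 was highest in ligated 3 (824 FPKM) and ligated 4 (814 FPKM). Adipocyte markers, 6 of 6 called higher, were highest in the same glands, with sums of 584 and 887 FPKM there, 237 to 410.5 FPKM in the other ligated and 1.20 to 18.0 FPKM in the sham glands. Their part in the result was not tested.

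Of 17 iron handling genes 6 were called higher and 0 lower, where 17.1% and 1.16% of all genes were. Under median-ratio scaling 2 were higher and 1 lower. Hmox1, which breaks down heme and frees its iron, rose by 2.19 ± 0.34 (limma adjusted p = 0.000731) to 46.7 ± 11.2 FPKM in ligated glands, against 10.8 ± 8.01 FPKM in sham glands (SD, n = 5 each). It was highest among sham glands in sham 1 (24.9 FPKM), which also had the highest macrophage sum of that group, 565 FPKM, and their part in the result was not tested. Steap3, an iron reductase of endosomes, rose by 1.91 ± 0.21 (limma adjusted p = 0.000164). Fth1, the ferritin heavy chain and cargo of NCOA4, rose by 1.41 ± 0.17 (limma adjusted p = 0.000218), with 325 ± 38.1 FPKM in ligated and 123 ± 25.5 FPKM in sham glands. After median-ratio scaling Fth1 stood at 0.76, under the fold threshold. Tfrc, the transferrin receptor, picked after its values were seen, had -0.60 ± 0.22 (limma adjusted p = 0.0363), short of the fold threshold. It was -1.22 and a call after median-ratio scaling.

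Of 14 tested genes for cystine, glutathione and NADPH supply 3 were called higher (Me1, Trp53 and Gsr) and 0 lower, a share near the 17.1% of all genes called higher. Under median-ratio scaling 1 was higher and 1 lower. Me1, a cytosolic source of NADPH, rose by 2.66 ± 0.39 (limma adjusted p = 0.000548), and Gsr, which restores oxidised glutathione, rose by 1.06 ± 0.20 (limma adjusted p = 0.00195). Me1 too was highest in ligated 3 and 4. Gclc, the catalytic subunit of the first enzyme of glutathione synthesis, also picked after its values were seen, had -0.65 ± 0.14 (limma adjusted p = 0.00319). It was not called as deposited and was called lower, at -1.28, under median-ratio scaling.

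Of 5 tested lipid oxidation genes, the NADPH oxidase subunits Cyba (2.49 ± 0.46, limma adjusted p = 0.00167) and Cybb (2.12 ± 0.40, limma adjusted p = 0.00197) were higher. Both are known from phagocytes, and both were also raised in sham 1 (65.3 and 13.2 FPKM), where macrophage markers summed to 565 FPKM. Their part in the result was not tested. Ptgs2, the inducible cyclooxygenase often read as a sign of ferroptosis, missed the filter, and its values were chosen for print after they were seen. It was at 0.606, 2.69, 15.2, 4.71 and 2.88 FPKM in ligated 1 to 5 and at most 0.177 FPKM in sham glands. Among 11 radical-trapping genes Gch1, the first enzyme of tetrahydrobiopterin synthesis, rose by 1.54 ± 0.26 (limma adjusted p = 0.00104). No gene was called for selenoprotein synthesis (0 of 5), polyamine turnover (0 of 9) or autophagy of ferritin (0 of 6). Without the libraries highest in parotid markers selenoprotein synthesis had 1 call. Without those high in lymph node markers selenoprotein synthesis and polyamine turnover had 1 call each. At the 17.1% of all genes called higher, lists of this size hold few calls, and nothing is read from these counts. Their most abundant members were Sephs2 (0.90 ± 0.15), Oaz1 (0.43 ± 0.18) and Sqstm1 (0.42 ± 0.13), and the signs of Oaz1 (-0.22) and Sqstm1 (-0.23) turned under median-ratio scaling.

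**Figure D5:**
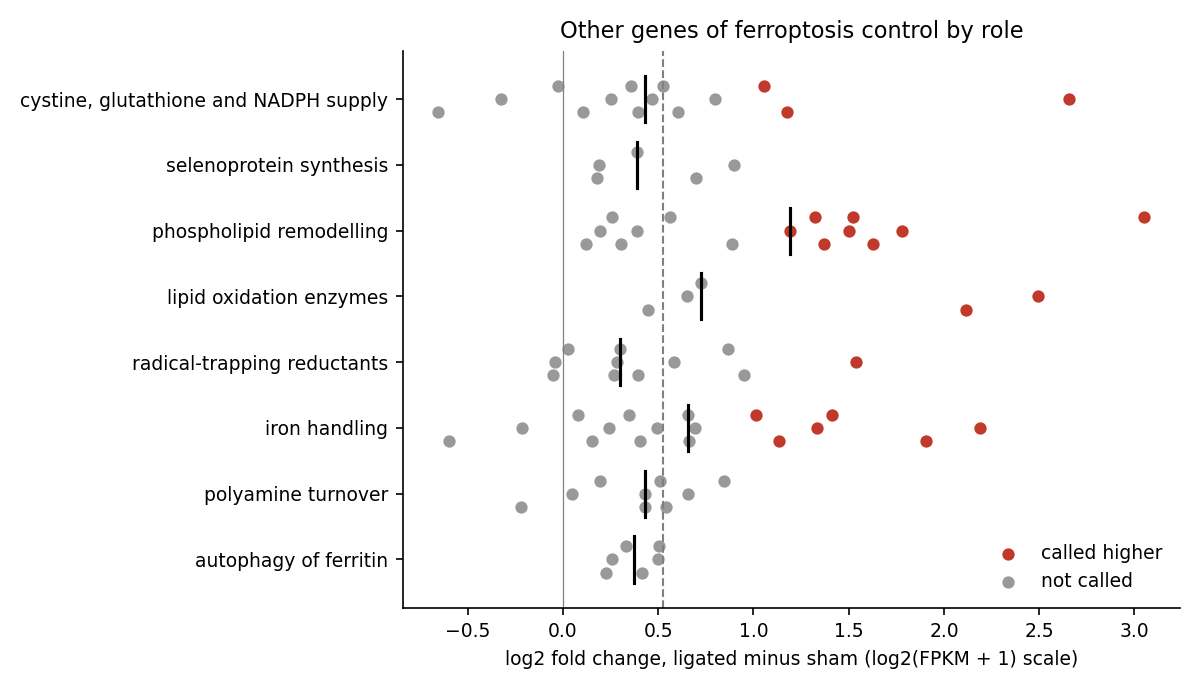
Log2 fold change (ligated minus sham) of 82 tested genes in 8 role lists, with called genes in red, the median of each list as a black bar and the median of all genes (0.53) as a dashed line. Phospholipid remodelling has the highest list median, 1.19, and no gene is called lower as deposited. The lists were chosen with earlier results of these data known.

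The genes closest in pattern to other members were found in the same way. For Acsl4 they were Mef2a (root mean square difference of 0.15 on the log2 scale) and Lrrc58 (0.16), over 10 libraries. Sat1 was closest to Asah1 (0.10), the lysosomal acid ceramidase, and Arpc5 (0.11). For Aifm2 they were Acadm (0.14) and Hadhb (0.15), both enzymes of fatty acid oxidation in mitochondria. Aifm2 was highest in ligated 4, which also had the highest skeletal muscle sum (670 FPKM over 6 markers) and the highest adipocyte sum (887 FPKM). In ligated 3 both Aifm2 (8.35 FPKM) and the adipocyte sum (584 FPKM) came next. Ligated 2 had the next highest muscle sum (435 FPKM), an adipocyte sum of 239 FPKM and the lowest ligated Aifm2 (3.55 FPKM). Ligated 1 had the lowest ligated muscle and adipocyte sums (27.3 and 237 FPKM), with Aifm2 at 7.49 FPKM. Skeletal muscle markers, 6 of 6 called higher, summed to 27.3 to 670 FPKM in ligated and 1.75 to 3.97 FPKM in sham glands. Fibroblast markers, also 6 of 6 called higher, summed to 915 to 4216 FPKM in ligated and 116 to 215 FPKM in sham glands. The part of these cells in the result was not tested. Gpx4 was closest to Ctps (0.11) and Slc25a30 (0.11). Slc3a2 was closest to Arhgef37 (0.08) and Lmbrd2 (0.10). For Lpcat3 the nearest were Hpcal1 (0.06) and Ndufb7 (0.07), and for Ncoa4 they were Psmc2 (0.07) and Uba1 (0.07).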

How the data were processed

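RNA of 10 submandibular glands (5 ligated, 5 sham) was sequenced with a SMARTer messenger RNA kit, per the labels' protocols. The authors deposited 1 table of FPKM per gene. Its genome build was GRCm38, per the submitters' processing notes. The sources used here do not name the aligner, counter, annotation or strandedness.

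Genes reaching 1 FPKM in 5 or more libraries were compared with limma 3.58.1 (R 4.3.3) on log2(FPKM + 1), with a mean-variance trend, 2 groups and no covariate. P-values are two-sided and adjusted over 11856 genes. The pseudocount understates fold changes of low genes. Ratios of 2 members were compared by an exact permutation test, whose smallest p is 0.00794 with 5 against 5.

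Reads were recovered from FPKM and the merged exon length of GENCODE M21: 98.3% to 98.4% of values below 200 reads were whole within 0.01 of a read. limma was tested on simulated data.

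Members and lists were chosen with earlier results of these data known. All members are named, with up to 3 called genes of largest change per list, or the most abundant where none was called. For patterns, the 2 tested genes nearest to a member were taken. Exceptions are stated. Alternatives covered the pseudocount, filter, scaling, replicate block, recovered reads (voom with median-ratio factors) and libraries left out. Leaving out those high in lymph node markers was chosen after seeing the data.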

Additional observations from a re-analysis of the deposited data

Results flagged for a closer look

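Slc7a11 in sham 1 stood apart from the other sham glands, at 0.594 FPKM against 0.0208 to 0.0804 FPKM, and this gap was 0.896 of the range of the group. It was the only such case among 24 groups of 5 values checked, and chance gives about 1 in 20. Sham 1 was also the sham gland with the highest lymph node marker sum, 233 FPKM, whose part in the result was not tested.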

How the results depend on the processing

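Calls among all genes, 2031 higher and 138 lower as deposited, became 843 and 475 under median-ratio scaling, 689 and 509 under quantile normalization, 5464 and 65 with the same FPKM sum, and 1149 and 642 by voom on recovered reads. A filter at 5 FPKM left 1166 higher, and leaving out the libraries highest in parotid markers left 79 lower. Members called higher, 4 as deposited, became 0 under median-ratio scaling, 0 under quantile normalization and 0 by voom. Pathway genes, 20 higher and 0 lower as deposited, became 10 and 2 under median-ratio scaling, 8 and 2 under quantile normalization and 12 and 3 by voom, and 40 were higher with the same sum. Signs turned for Slc3a2 (0.26, same sum), Lpcat3 (-0.45, -0.39 and -0.48) and Ncoa4 (-0.13, -0.19 and -0.16; median-ratio, quantile and voom), and for the Acsl4 to Gpx4 ratio (-0.089) without the libraries highest in parotid markers. The causes were not tested. The Slc7a11 to Slc3a2 difference missed the threshold without those libraries (0.82, exact p = 0.0667) and without those high in lymph node markers (0.57, exact p = 0.0667), and 2 against 4 glands allow no smaller p. Leaving out 1 library gave 1725 to 2732 genes higher and 102 to 202 lower, 3 to 5 members higher, and 18 to 23 pathway genes higher. With the replicate number as a block, 2082 genes were higher and 121 lower, 4 members and 20 pathway genes were higher, and the Slc7a11 to Slc3a2 difference was 0.82 (exact p = 0.0625, the smallest possible). For libraries of the same number, the deviations from their group means correlated at 0.18, -0.38, -0.08, 0.33 and 0.58. By these deviations 2 of 5 correlated best with their own number, so the numbers were not taken as pairs. Depth limits Slc7a11 and Alox15, for which 3 reads amount to 0.0125 to 0.0178 FPKM and 0.0706 to 0.101 FPKM.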
